A study of Mus musculus with 2 samples.

Results

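Macrophages of 2 regions of a mouse melanoma, marked by the spatial barcodes ZC2 and ZC3, differed in the levels of MHC class II genes, type I interferon response genes and single chemokines in 1 library without replicates. Cells of the ZC2 region carried more transcripts of the MHC class II machinery (1.66 times as many CPM in sum) and of genes typical of tissue-resident macrophages. ZC3 cells carried more of the monocyte chemokines Ccl2, Ccl7 and Ccl12 (2.26 to 3.01 times as high), of type I interferon response genes and of single genes such as Ch25h. Glycolysis genes were lower in ZC2 by a small step, 2 of 16 past 1.5-fold. The comparison covers 245 ZC2 and 701 ZC3 macrophages, out of 2411 macrophages and 4236 cells in all.

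The tumour was B78ChOVA, a mouse melanoma line, grown for 16 days after 50 µl of cells had been placed under the skin of the flank. Live sections of about 160 µm were marked with ZipSeq, which uses light to attach short DNA barcodes to the surface of cells in chosen areas, and the immune cells were then sorted and profiled in 10x Genomics droplets. All cells shared the same tumour type, day and preparation, with no treatment in the labels, and both regions came from 1 gene expression library and its matching barcode library. The tissue area behind each ZC barcode, the strain of the mice and the number of tumours are not stated in the sources used here.

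Tumour macrophages take up dying cells, present antigen and secrete chemokines, and they arise from blood monocytes and from cells resident in the tissue. MHC class II molecules display peptides to CD4+ T cells, under the control of the transactivator Ciita. Type I interferons act through a shared receptor to switch on antiviral genes. Glycolysis genes and many hypoxia genes are targets of the hypoxia-inducible factors.

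A macrophage was a cell with at least 1000 gene UMIs (unique molecular identifiers, which count captured transcripts), at least 500 genes, at most 10% mitochondrial UMIs, at least 5000 counts per 1000000 UMIs (CPM) of C1qa, C1qb and C1qc together, and fewer than 3 UMIs of Cd3d, Cd3e and Cd3g. The share of each ZC among a cell's barcode UMIs was divided by its share in droplets with 10 to 100 gene UMIs, and the highest had to be at least 1.5 times the next, with at least 30 barcode UMIs. ZC1 took 251 macrophages, and 1214, or 50.4%, had no region. The assignment is relative, since the median ZC2 cell held 43.3% ZC2 and 45.0% ZC3 UMIs, against 15.9% and 78% in the median ZC3 cell. Of the ZC2 cells 111 had a margin between 1.5 and 1.8 and 17 a margin of at least 3, against 204 and 148 ZC3 cells. Just outside the margin, between 1.2 and 1.5, lay 165 cells with ZC2 on top and 268 with ZC3. The C1q gate had 46 cells just inside, between 5000 and 6000 CPM, and 55 just outside, between 4000 and 5000.

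C1qa, part of the gate, stood at 6135 CPM in ZC2 and 5627 CPM in ZC3 cells. Of macrophage genes outside the gate, Cd68 was at 830 and 859 CPM and Adgre1, which encodes F4/80, at 451 and 416 CPM. The list of 10 macrophage genes, gate genes included, summed to 26727 CPM in ZC2 and 22923 CPM in ZC3. Of these, 2 were past 1.5-fold towards ZC2, Apoe and Mertk, the highest at 1.76. The lowest, Fcgr1, had a ratio of 0.82. ZC3 cells were deeper, with a median of 32771 UMIs and 5131 genes against 26588 UMIs and 4730 genes, and the median mitochondrial share was 3.93% in ZC2 and 3.70% in ZC3. T cell markers, which the CD3 limit lowers, summed to 13.3 and 6.18 CPM. Mast cell, fibroblast and red blood cell markers were near 0, with sums of at most 3.92 CPM. Markers of type 1 dendritic cells summed to 424 CPM in ZC2 and 484 CPM in ZC3, of type 2 to 516 and 390, of plasmacytoid dendritic cells to 360 and 449, of mature dendritic cells to 19.5 and 5.19, and of NK cells to 40.5 and 25.6. Several of these genes, such as Irf8, Sirpa and Bst2, are also made by macrophages. The NK gene Gzma was 3.69 times as high in ZC2, where 1 cell held 99% of its UMIs. Melanoma genes summed to 118 and 87.9 CPM in ZC2 and ZC3, against 339 in free RNA, the droplets with 10 to 100 UMIs. Per cell their median went the other way, at 51.8 CPM in ZC2 and 63.7 CPM in ZC3. The 8 monocyte markers summed to 580 and 423 CPM, and of 5 compared, Ccr2, Ly6c2 and Chil3 were 2.15, 1.8 and 1.65 times as high in ZC2, Plac8 had a ratio of 1.07 and Ms4a4c of 0.81.

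With 1 library there is no replicate, so no test was made. The 95% intervals of levels and ratios cover the counting of UMIs only, and those of shares the counting of cells within this library, not differences between sections or tumours. Of 9355 genes with enough counts, 337 (3.6%) were at least 1.5-fold higher in ZC2 and 240 (2.57%) at least 1.5-fold higher in ZC3, 6.17% in either direction. The median ratio of ZC2 over ZC3 was 0.995. Gene lists were read against these shares, as counts of members past 1.5-fold and as a median ratio.

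**Figure D1:**
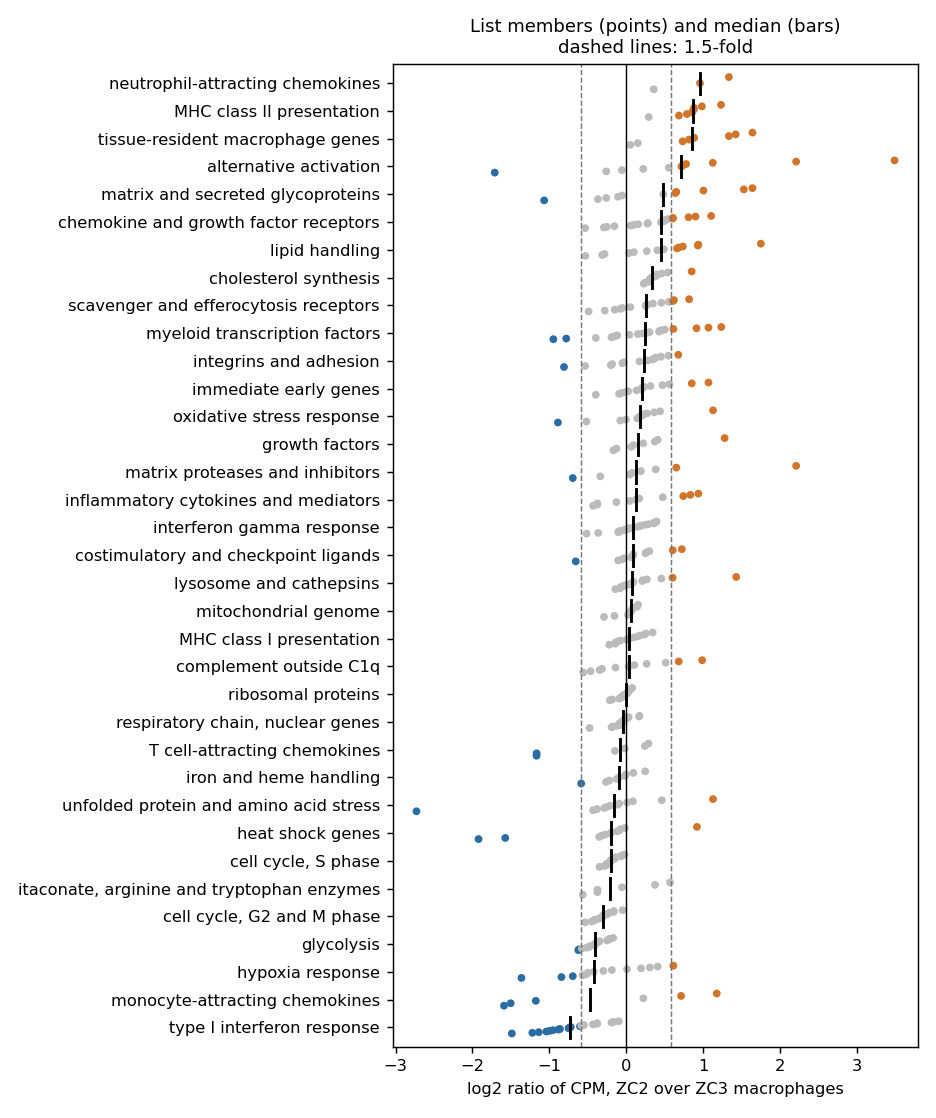
Log2 ratio of CPM, ZC2 over ZC3 macrophages (x axis), for the compared members of 35 gene lists (y axis, sorted by median). Each point is a gene, orange where at least 1.5-fold higher in ZC2 and blue where at least 1.5-fold higher in ZC3, and black bars mark the list medians. MHC class II lies near the top with a median ratio of 1.82 and the type I interferon response at the bottom with 0.60.

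MHC class II presentation was the list with most members past 1.5-fold towards ZC2, 8 of 9 compared, with a median ratio of 1.82. The α and β chains H2-Aa, H2-Ab1 and H2-Eb1 stood at 5707, 4737 and 5020 CPM in ZC2 and at 2885, 2575 and 2727 CPM in ZC3. H2-Aa was 1.98 times as high in ZC2 (interval 1.95 to 2.0). Cd74, the invariant chain that guides the complex to the endosome, measured 15832 CPM in ZC2 and 9849 CPM in ZC3, a ratio of 1.61. The peptide-loading chains H2-DMa and H2-DMb1 had ratios of 1.82 and 1.73. Ciita, the transactivator, was at 49.6 CPM against 21.1 CPM, a ratio of 2.35 (2.05 to 2.69). Ctss, the protease that trims the invariant chain, was the member within 1.5-fold, at 1.22. Of type 2 dendritic cell markers 2 of 3 compared, Mgl2 and Clec10a, were also past 1.5-fold towards ZC2, as was Socs2, the 1 compared marker of mature dendritic cells. Without the cells holding UMIs of Cd209a, Flt3, Ccr7, Xcr1 or Clec9a, 188 ZC2 and 496 ZC3 cells were left and the MHC class II median log2 ratio was 0.81, against 0.86.

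The whole list summed to 36726 CPM in ZC2 and 22100 CPM in ZC3. ZC1 macrophages, at 36989 CPM, were close to ZC2, and free RNA held 22808 CPM. Per cell the list's median was 36677 CPM in ZC2 and 17086 CPM in ZC3, yet the middle ranges of the cells overlapped, from 16929 to 57153 CPM (25th to 75th percentile) in ZC2 and from 7581 to 37743 CPM in ZC3. MHC class I presentation did not share the difference, with 0 of 13 members past 1.5-fold and a median ratio of 1.03. In the 58 ZC2 and 100 ZC3 cells without a cell cycle UMI the MHC class II sums were 45770 and 38771 CPM, and the median member ratio fell to 1.26. Those cells had medians of 19624 and 21666 UMIs, below the full sets. When cell cycle UMIs were sought at an equal 5000 UMIs per cell, 127 and 266 cells were left and the median ratio was 1.72. MHC class II sums in these cells were 45893 and 28834 CPM. A cell cycle UMI was found at that depth in 114 ZC2 and 426 ZC3 cells, 46.5% and 60.8% of the sets. Those cells had sums of 29762 and 19031 CPM and a median ratio of 1.74. How much of the difference rests on the mix of cells with and without such UMIs was not tested. At that depth a Ly6c2 or Ccr2 UMI was found in 132 ZC2 and 215 ZC3 cells, 53.9% and 30.7% of the sets. MHC class II sums in them were 43283 and 32080 CPM, with a median member ratio of 1.41. Cells without such a UMI, 109 and 477, had sums of 29269 and 17941 CPM and a median of 1.82. Whether the mix of monocyte-marked cells accounts for the difference was not tested.

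Promoters of 3 list genes are shown because the genes were higher together and lie in the MHC region of chromosome 17. They are the 150 bases before the RefSeq start on GRCm38.p6, 5′ to 3′, of H2-Aa (chr17:34287824-34287973, minus strand), H2-Eb1 (chr17:34305717-34305866, plus strand) and H2-DMb1 (chr17:34153041-34153190, plus strand). Capitals mark TGATTGG, the core of the Y box of MHC class II promoters, a motif chosen after the sequences were seen.
H2-Aa: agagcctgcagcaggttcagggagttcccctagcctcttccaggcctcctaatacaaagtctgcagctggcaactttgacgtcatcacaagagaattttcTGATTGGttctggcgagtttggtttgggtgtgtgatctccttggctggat
H2-Eb1: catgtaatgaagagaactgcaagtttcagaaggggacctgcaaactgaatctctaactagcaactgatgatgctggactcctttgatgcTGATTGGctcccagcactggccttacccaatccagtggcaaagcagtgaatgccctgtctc
H2-DMb1: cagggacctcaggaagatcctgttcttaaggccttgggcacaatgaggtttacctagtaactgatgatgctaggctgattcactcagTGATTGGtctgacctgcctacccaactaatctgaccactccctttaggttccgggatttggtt
The motif, on either strand of the RefSeq window from 250 bases before to 50 after the start, was present in 5 of the 7 list genes with an entry and in 4 of the 5 of them past 1.5-fold. Among all 27025 genes with an entry 9.0% held it. A match is a string of letters and not evidence of binding.

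**Figure D2:**
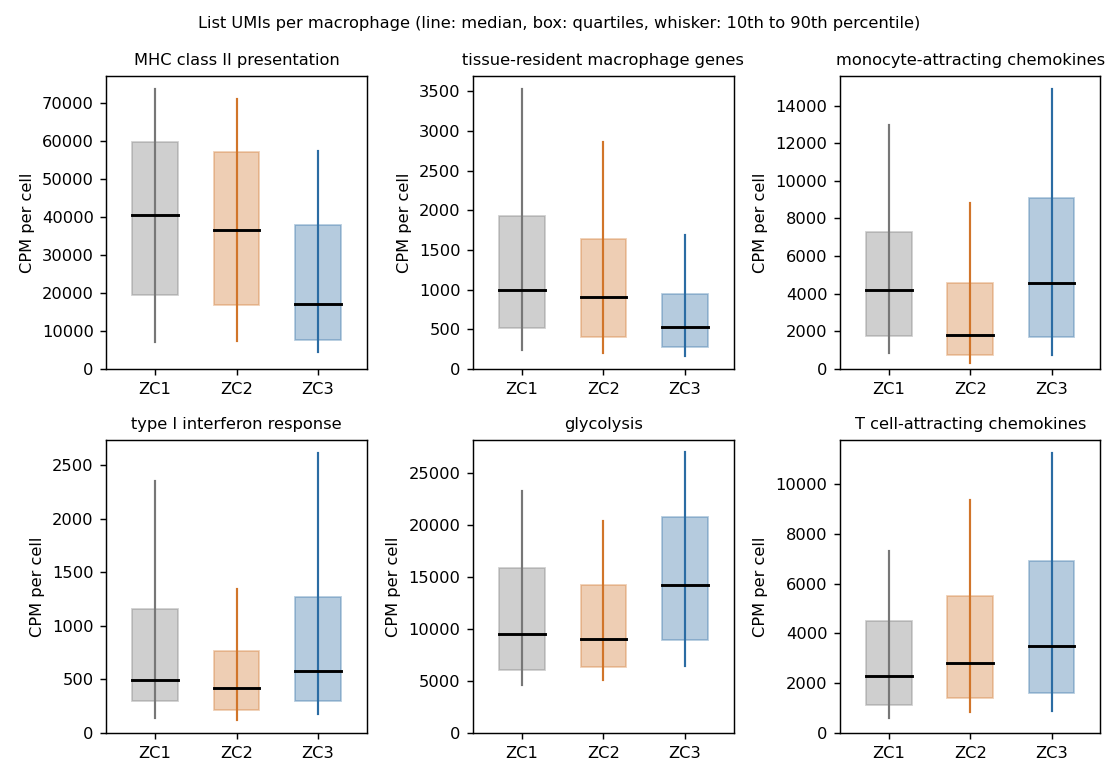
CPM per cell (y axes) of 6 gene lists in ZC1, ZC2 and ZC3 macrophages (x axis), with the median as a black line, quartiles as a box and the 10th to 90th percentile as a whisker. MHC class II has medians of 36677 CPM in ZC2 and 17086 CPM in ZC3, the monocyte-attracting chemokines 1829 and 4592 CPM, and the boxes of ZC2 and ZC3 overlap in every panel.

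Chemokines were higher in either region, depending on the gene. Among 6 compared monocyte-attracting chemokines 3 were past 1.5-fold towards ZC3 and 2 towards ZC2. Ccl12, Ccl7 and Ccl2 all bind Ccr2 and lie in 1 chemokine cluster on mouse chromosome 11, at chr11:82101845-82103399, chr11:82045712-82047525 and chr11:82035577-82037452. Ccl12 measured 774 CPM in ZC2 (interval 754 to 795) and 2329 CPM in ZC3 (2310 to 2348), 3.01 times as high in ZC3. Ccl7 measured 617 and 1747 CPM, 2.83 times as high in ZC3, and Ccl2 676 and 1528 CPM, 2.26 times as high. Macrophages of ZC1 lay between the 2 sets for these 3 genes, at 1186, 1037 and 1099 CPM.

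Ccl6 and Ccl9, ligands of Ccr1, went the other way, at 246 against 109 CPM and 192 against 117 CPM, or 2.26 and 1.64 times as high in ZC2. Ccl8 was at 1165 and 999 CPM, within 1.5-fold. Of the T cell-attracting chemokines Ccl3 and Ccl4 were each 2.24 times as high in ZC3, Ccl3 at 219 against 491 CPM and Ccl4 at 702 against 1576 CPM. Their RefSeq gene models overlap, so reads could be shared between them. The interferon-induced Cxcr3 ligand Cxcl9 was within 1.5-fold, at 1945 CPM in ZC2 and 1592 CPM in ZC3, as was Cxcl10, at 475 and 482 CPM. Pf4 and Cxcl2 of the neutrophil-attracting list were 2.52 and 1.94 times as high in ZC2. Ccl3 changed sign, from a log2 ratio of −1.17 to 0.10, when cells with cell cycle UMIs were left out. Ccl9 went from 0.71 to −0.024 without cells holding UMIs of Folr2, Lyve1, Retnla, Ear2, Lyz1, Mmp12 or F13a1. These are called resident-type UMIs as a shorthand only, since Ear2 is on the nonclassical monocyte list and Mmp12 on the matrix protease list. Cxcl2 went from 0.96 to −0.76 at a region margin of 3. Ccl4 shrank to −0.22 without the cells holding Ly6c2 or Ccr2 UMIs.

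The type I interferon response was the list with most members past 1.5-fold towards ZC3, 12 of 20 compared, and the other 8 had ratios below 1 too. Its median ratio was 0.60. Cmpk2, a mitochondrial nucleotide kinase induced by interferon, was at 5.6 CPM in ZC2 and 15.7 CPM in ZC3, 2.80 times as high in ZC3 (2.02 to 3.99). Mx1, an antiviral GTPase, was 2.33 times, Oas3, a sensor of double-stranded RNA, 2.20 times and Usp18, which removes Isg15 from proteins, 2.05 times as high in ZC3. Irf7, the transcription factor that amplifies the response, stood at 81.5 against 148 CPM, and Isg15 at 120 against 201 CPM. Ifit1, at 52.1 and 55.7 CPM, was nearly level, but 1 cell held 34% of its ZC2 UMIs.

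The interferon gamma response did not follow, with 0 of 19 members past 1.5-fold and a median ratio of 1.06. Type I interferon genes summed to 764 CPM in ZC2, 1206 CPM in ZC3 and 940 CPM in ZC1. The difference moved with monocyte markers. In cells with a Ly6c2 or Ccr2 UMI, 173 in ZC2 and 353 in ZC3, the list summed to 657 and 1446 CPM. In the 72 and 348 cells without one it summed to 1028 and 958 CPM, and the median member ratio was 0.92. At an equal 5000 UMIs the cells without one numbered 109 and 477, with sums of 913 and 1075 CPM and a median of 0.81. Whether the mix of monocyte-marked cells accounts for the difference was not tested.

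Promoters of Oas3 (chr5:120777660-120777809, minus strand) and Rsad2 (chr12:26456453-26456602, minus strand), the gene of viperin, which was 1.65 times as high in ZC3, are given as examples of the group. Capitals mark GAAA, any 2 bases and GAAA, the core of the interferon-stimulated response element, which lies on the opposite strand in Rsad2. The Oas3 stretch overlaps the RefSeq span of the gene, which ends at chr5:120777684.
Oas3: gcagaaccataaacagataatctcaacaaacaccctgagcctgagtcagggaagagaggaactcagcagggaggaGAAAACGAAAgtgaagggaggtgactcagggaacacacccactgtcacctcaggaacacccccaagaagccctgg
Rsad2: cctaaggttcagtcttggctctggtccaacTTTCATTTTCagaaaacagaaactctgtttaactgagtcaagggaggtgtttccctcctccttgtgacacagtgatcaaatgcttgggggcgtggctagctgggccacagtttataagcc
On either strand of the same RefSeq window it occurred in 8 of 15 list genes with an entry, against 3.99% of all genes. Of the 9 members with an entry that were past 1.5-fold, 4 held it. The windows of Cmpk2 and Irf7 had no match to these letters.

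Glycolysis genes were lower in ZC2 without exception, 16 of 16 ratios below 1 with a median of 0.75, though only Slc16a3 and Tpi1 passed 1.5-fold towards ZC3. The lactate exporter Slc16a3 measured 135 CPM in ZC2 and 208 CPM in ZC3, and triosephosphate isomerase Tpi1 823 and 1260 CPM. Ldha, which makes lactate from pyruvate, was at 1265 and 1809 CPM and Gapdh at 3443 and 4571 CPM. Per cell the list's median was 9034 CPM in ZC2 and 14294 CPM in ZC3. With regions from raw ZC UMIs the median log2 ratio went from −0.41 to 0.00084. That setting also used another margin and another minimum of ZC UMIs, and it left 8 ZC2 cells. The promoter of Slc16a3 (chr11:120948917-120949066, plus strand) is shown because it holds 2 copies of ACGTG, the core of hypoxia response elements, in capitals. This stretch lies within the RefSeq span of the gene, chr11:120948484-120959000, and not before its first base.
Slc16a3: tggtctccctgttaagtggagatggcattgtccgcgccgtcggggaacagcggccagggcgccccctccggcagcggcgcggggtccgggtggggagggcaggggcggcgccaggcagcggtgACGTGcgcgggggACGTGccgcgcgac
The core occurred in 10 of 16 glycolysis genes and 12 of 13 hypoxia genes with an entry, against 21.8% of all genes. Of the members with an entry that were past 1.5-fold, 1 of 2 held it in each list.

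Of 15 compared hypoxia genes 3 were past 1.5-fold towards ZC3 and 1 towards ZC2. Ndrg1, a stress-induced gene of differentiation, was at 28.8 CPM in ZC2 and 74.2 CPM in ZC3, 2.57 times as high in ZC3, and P4ha2, a collagen prolyl hydroxylase, was 1.79 times and the peptide hormone gene Adm 1.62 times as high. Glucose transporter Slc2a1 was at 117 against 166 CPM. Vegfa, the angiogenic factor, went the other way at 32.3 against 24.4 CPM, and the transcription factor Bhlhe40 was 1.53 times as high in ZC2. Nuclear-encoded respiratory chain genes had 0 of 18 members past 1.5-fold and a median ratio of 0.97.

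Tissue-resident macrophage genes were higher in ZC2 in 6 of 8 compared members, with a median ratio of 1.8. The list summed to 1377 CPM in ZC2, 747 CPM in ZC3 and 1410 CPM in ZC1, so ZC1 was close to ZC2. In the 58 ZC2 and 100 ZC3 cells without a cell cycle UMI the median ratio was 1.14, and with those UMIs sought at 5000 UMIs per cell it was 1.64. F13a1, a coagulation factor subunit made by macrophages, was at 72.1 against 23.1 CPM, a ratio of 3.12, and the folate receptor Folr2 at 32.9 against 12.3 CPM, a ratio of 2.68. The mannose receptor Mrc1 had 142 against 85.3 CPM and the selenium carrier Selenop 550 against 313 CPM, ratios of 1.66 and 1.76. Maf and Gas6 were within 1.5-fold, at 1.11 and 1.04. Lyve1, Timd4 and Cd163 had too few UMIs to be compared, and Vsig4 had no UMI in either set. F13a1 turned to a log2 ratio of −0.25, from 1.64, in the cells without cell cycle UMIs. Pf4 shrank from 1.33 to 0.43 and the growth factor Igf1, 2.43 times as high in ZC2, from 1.28 to 0.16 without cells holding Folr2, Lyve1, Retnla, Ear2, Lyz1, Mmp12 or F13a1 UMIs.

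Among alternative activation genes 6 of 11 were past 1.5-fold towards ZC2 and 1 towards ZC3, but the list summed to 2673 CPM in ZC2 and 2685 CPM in ZC3. Its median log2 ratio of 0.72 shrank to 0.0016 without the cells with resident-type UMIs. Retnla, the highest member of this list, is among the genes that define those cells, so the exclusion is not independent of the list. The elastase Mmp12 stood at 198 CPM in ZC2 (188 to 208) and 42.8 CPM in ZC3, a ratio of 4.62. The top 10% of cells held 94.4% of the Mmp12 UMIs in ZC2 and 97.3% of those in ZC3, so the level rests on few cells. The lectins Mgl2 and Clec10a, which type 2 dendritic cells also express, had ratios of 2.18 and 1.71. Retnla had 15.3 and 1.36 CPM, both below the 545 CPM of free RNA, and 1 cell held 50% of its ZC2 UMIs. Arg1 was level, at 67.3 and 70.0 CPM. The anti-inflammatory cytokine Il10 was 3.27 times as high in ZC3, at 3.78 against 12.4 CPM.

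Lipid handling had 6 of 14 members past 1.5-fold towards ZC2, among them the lipoprotein Apoe at 7318 against 4556 CPM, the tetraspanin Cd9 at 223 against 117 CPM and the cholesterol exporter Abca1 at 54.5 against 32.7 CPM. Gpnmb, a lysosomal glycoprotein that melanoma cells also make, was 3.36 times as high, but 1 cell held 25% of its ZC2 UMIs and its log2 ratio went from 1.75 to −0.55 without the cells with resident-type UMIs. The nuclear receptor Pparg pointed the other way at 45.4 against 65.6 CPM. Cholesterol synthesis genes had ratios above 1 in 13 of 13, with a median of 1.26, and 1 past 1.5-fold. The median log2 ratio of the lipid list went from 0.45 to −0.27 without the cells with resident-type UMIs. Lipid handling genes summed to 13183 CPM in ZC2, 9720 CPM in ZC3 and 13255 CPM in ZC1, so here too ZC1 was close to ZC2.

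Chemokine and growth factor receptors were higher in ZC2 in 5 of 20, with a median ratio of 1.37 and 16 ratios above 1, though the median log2 ratio went from 0.46 to 0.039 in the cells without cell cycle UMIs. Ccr2, the receptor of Ccl2, Ccl7 and Ccl12, was at 301 CPM in ZC2 and 140 CPM in ZC3, the reverse of its ligands. The shared β chain of the GM-CSF and IL-3 receptors, Csf2rb, had 82.5 against 47.0 CPM, and the interferon gamma receptor chain Ifngr1 150 against 98.4 CPM.

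The genes with the highest and lowest ratios were taken among those found in at least 10% of the cells of the higher set with no cell of that set holding over 10% of its UMIs there. The lower set had no such limit. At the ZC2 end were the transcriptional corepressor Cbfa2t3 (15.7 against 4.12 CPM, ratio 3.80), the kinase Matk (18.8 against 5.98 CPM, 3.14), the lysophospholipid receptor Gpr34 (2.89), the receptor activity modifier Ramp1 (2.82), the platelet-activating factor receptor Ptafr (2.82) and Pla2g7 (134 against 50.8 CPM, 2.64), the hydrolase that degrades platelet-activating factor. Ptafr and Pla2g7, a receptor and the enzyme that removes its ligand, were thus both higher in ZC2. Socs2, a feedback inhibitor of cytokine signalling, was 3.16 times as high.

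At the ZC3 end Ch25h, which makes the oxysterol 25-hydroxycholesterol, had 40.7 CPM in ZC2 (36.2 to 45.7) and 142 CPM in ZC3 (137 to 147), 3.49 times as high in ZC3. The serine protease gene Htra4 had 16.8 against 49.4 CPM, 2.94 times as high, and Fcrl5, an Fc receptor-like gene known mainly from B cells, 14.6 against 42.6 CPM, 2.92 times as high. B cell markers summed to 218 and 208 CPM in ZC2 and ZC3, and the 2 compared, Cd79b and Ighm, had ratios of 0.82 and 1.15. Which cells the Fcrl5 UMIs come from was not tested. Hspa1a and Hspa1b, near-identical chaperone genes whose reads may be split between them, were 3.79 and 2.98 times as high in ZC3, and in ZC2 1 cell held 32% and 46% of their UMIs. At a region margin of 1 their log2 ratios shrank from −1.92 to −0.45 and from −1.57 to −0.19, within 1.5-fold. ZC1 cells had 136 and 99.6 CPM of these 2 genes, above the 107 and 64.6 CPM of ZC3. Of the other 10 heat shock genes 9 were within 1.5-fold, such as Hspa8 at 0.99, and Hspb1 was past it towards ZC2. The pseudokinase Trib3, an amino acid stress gene that did not meet the rule for these ends, was at 0.84 against 5.56 CPM, low in both sets.

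**Figure D3:**
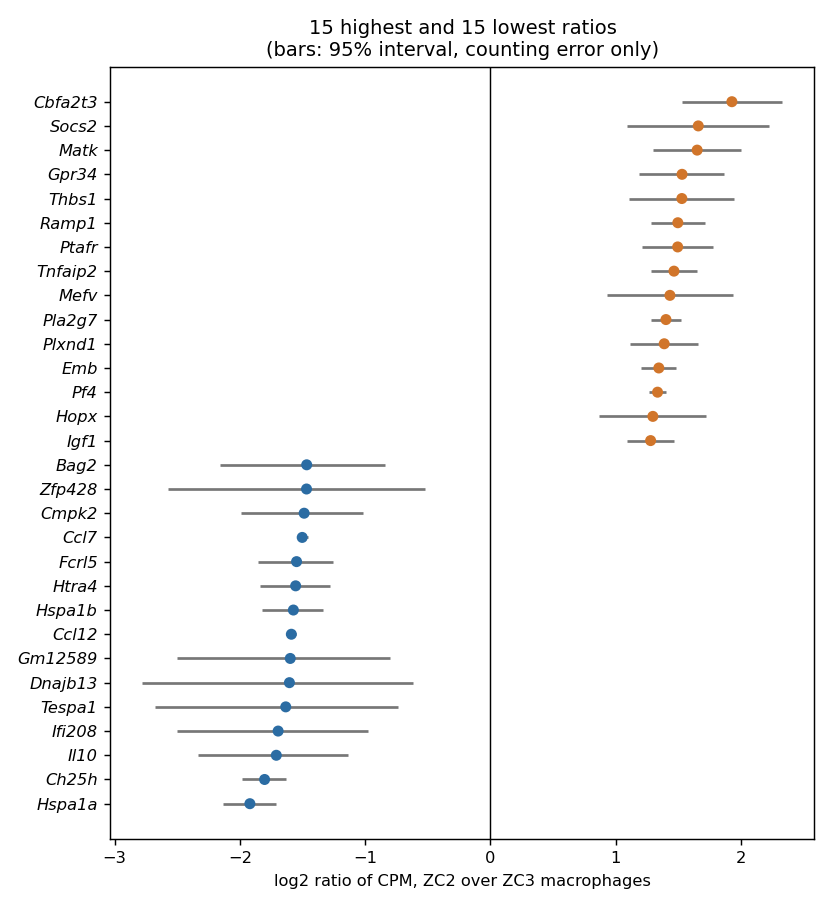
Log2 ratio of CPM, ZC2 over ZC3 macrophages (x axis), for the 15 highest (orange) and 15 lowest (blue) genes (y axis) by the rule in the text, with 95% intervals for counting error as grey bars. Cbfa2t3 has a ratio of 3.80 at the top and Hspa1a is 3.79 times as high in ZC3 at the bottom, and intervals widen for genes of few UMIs such as Dnajb13.

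A graded view used all macrophages with at least 30 barcode UMIs, cut into 5 bins by the ratio of ZC2 to ZC3 relative to free droplets. They held 160, 622, 1133, 429 and 61 cells from the ZC3 end to the ZC2 end, so the last bin is thin. Ch25h went from 142 and 137 CPM through 79.6 and 47.1 to 35.4 CPM. Ccl7 went from 1587 and 1745 CPM through 1339 and 780 to 423 CPM, and Ccl12 ended at 644 CPM. Glycolysis genes summed to 15754, 14966, 13374, 11558 and 11474 CPM along the bins.

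In the other direction Pf4 climbed from 87.5 to 189, 311, 333 and 398 CPM, and F13a1 had 5.83, 28.5, 59.4, 57.2 and 76.8 CPM. H2-Aa had 2839, 3032, 4607, 5650 and 5047 CPM, so that its highest bin was the fourth. MHC class II as a list likewise ended at 32541 CPM after 36908 CPM. Type I interferon genes showed no such order, with 965, 1240, 981, 890 and 1203 CPM, the last bin being near the second. These bins include cells of the 2 compared sets and are not independent of them.

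**Figure D4:**
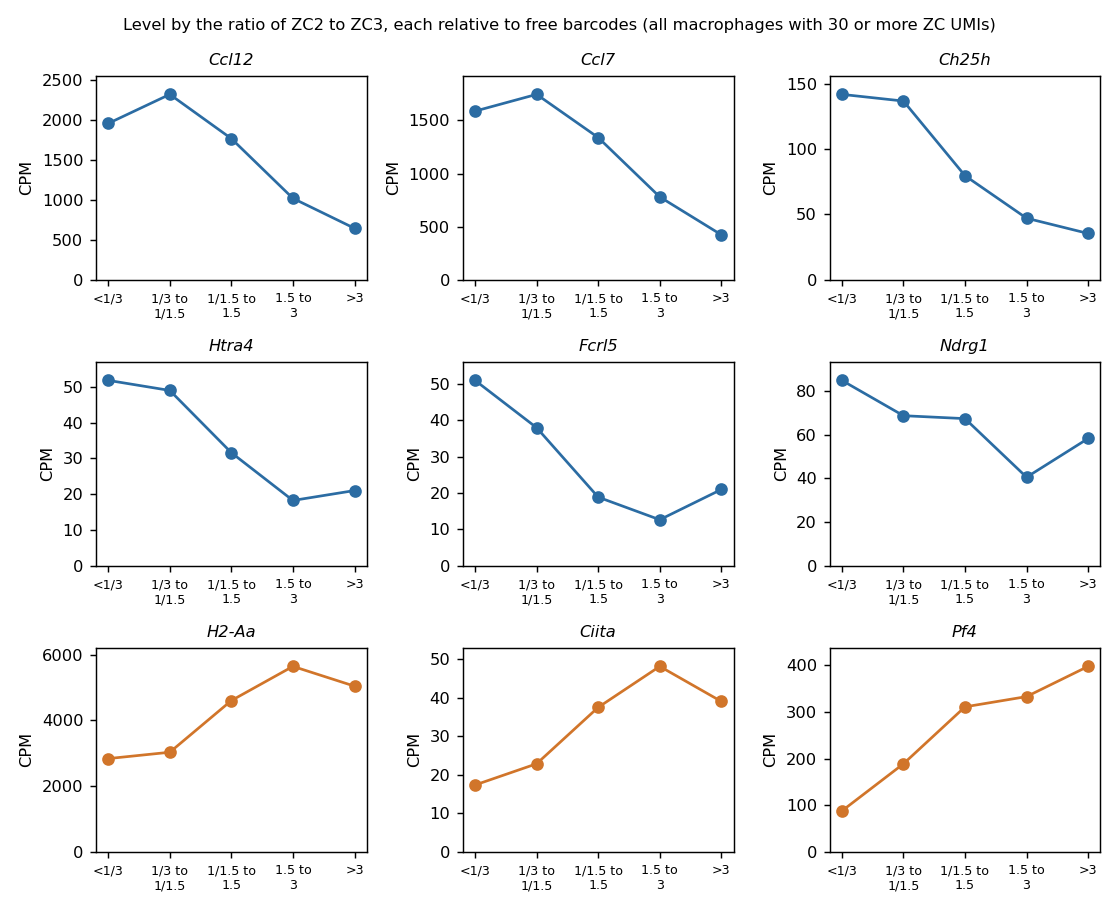
CPM (y axes) of 9 genes in 5 bins of macrophages by the ratio of ZC2 to ZC3 relative to free droplets (x axis, from ZC3-rich on the left to ZC2-rich on the right; 160, 622, 1133, 429 and 61 cells). Ch25h falls from 142 to 35.4 CPM and Pf4 climbs from 87.5 to 398 CPM, while H2-Aa is highest in the fourth bin. ZC1 was not used in the cut, so cells of the ZC1 region or without a region are included.

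To compare the shares of cells with the most UMIs of a list, each cell was thinned to 5000 UMIs, which left out 4 ZC2 and 9 ZC3 cells, and the cells in the top 10% of region-assigned macrophages by UMIs of a list were counted. MHC class II-high cells made up 14.5% of ZC2 macrophages (35 of 241, exact Clopper-Pearson interval 10.3 to 19.6%), 5.49% of ZC3 macrophages (38 of 692, 3.91 to 7.46%) and 19.1% of ZC1 macrophages. With the top 25% of cells in place of the top 10%, the difference between ZC2 and ZC3 was 19.4 percentage points against 9.03. Chemokine-high cells for the monocyte-attracting list were 3.32% of ZC2 and 12.9% of ZC3 cells. For the type I interferon list the shares were 5.39% and 12.3%, for glycolysis 4.15% and 13.6%, and for heat shock genes 4.15% and 12.4%.

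Shares for alternative activation were level, at 10.4% in each set. Resident-high cells were 15.8% of ZC2, 6.21% of ZC3 and 20.9% of ZC1 macrophages, and lipid-high cells 15.8%, 5.78% and 16.6%. Cells high for G2 and M phase genes were 9.54% and 11.7% of the 2 sets, and 0 of 15 of these genes were past 1.5-fold. All 15 had ratios below 1, with a median of 0.81, but their median log2 ratio went from −0.30 to 0.58 at a region margin of 3. The 15 S phase genes also had ratios below 1 without exception, with a median of 0.87 and 0 past 1.5-fold. Cells high for immediate early genes, which tissue dissociation can induce, were 6.64% of ZC2 and 6.50% of ZC3 macrophages but 26% of ZC1 macrophages. At a region margin of 3, which leaves 16 ZC2 and 145 ZC3 cells, the difference in MHC class II-high cells was −0.65 percentage points.

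**Figure D5:**
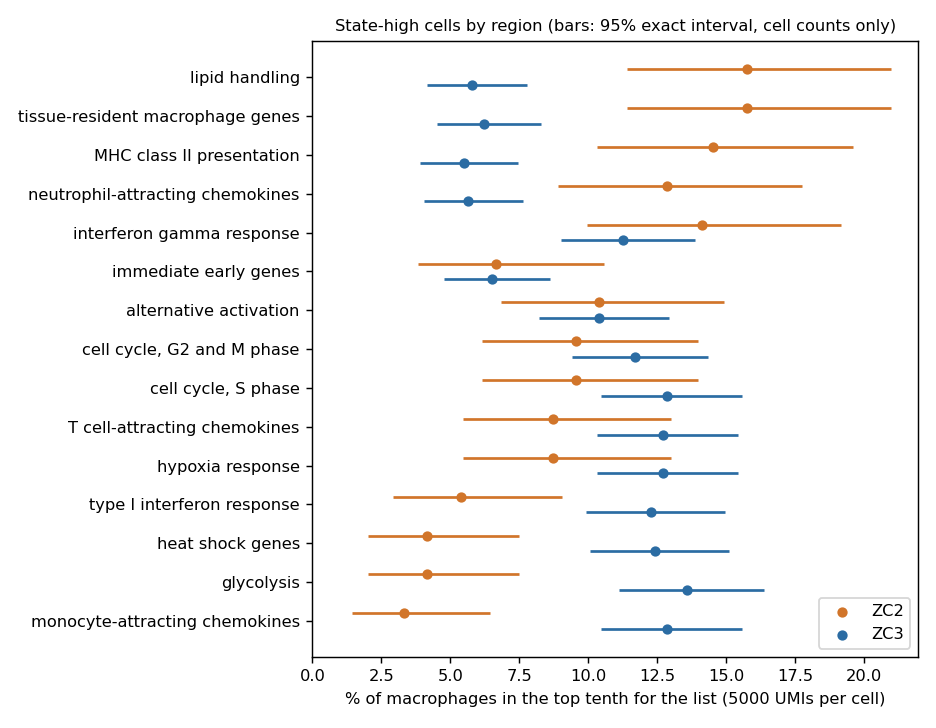
Share of ZC2 (orange) and ZC3 (blue) macrophages in the top 10% of region-assigned macrophages for 15 gene lists (y axis), in percent of cells at 5000 UMIs per cell (x axis), with 95% exact intervals for the counting of cells in this library. MHC class II-high cells are 14.5% of ZC2 and 5.49% of ZC3 cells, and cells high for monocyte-attracting chemokines 3.32% and 12.9%.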

How the data were processed

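Gene expression and spatial barcode libraries of the same sorted immune cells were analysed as 1 sample. The authors' deposited matrix holds unfiltered UMI counts of genes and ZC barcodes, made with Cell Ranger 4.0.0 on mm10 per the submitters' processing notes, with settings not stated there. It holds 117528298 gene UMIs and 14355102 ZC UMIs, and 4591 of the 4592 barcodes with at least 500 gene UMIs carried ZC UMIs, so the libraries share their cells. No doublet caller was run; the limit on CD3 UMIs removed 221 cells.

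Counts were summed over the cells of each set and scaled to CPM, with exact Poisson intervals for levels, exact conditional binomial intervals for ratios and Clopper-Pearson intervals for shares, all at 95% (Python 3.11.15, numpy 2.4.6, scipy 1.17.1). Intervals cover counting error only. Compared genes had 100 or more UMIs in the sets together, with 10 or more expected in the smaller set; a set at 0 was put at a floor of 3 counts. Named genes are the 15 highest and 15 lowest ratios among genes in at least 10% of the cells of the higher set with no cell of that set above 10% of its UMIs, the 2 highest and 2 lowest members of each list, the gate genes and markers of other cells past 1.5-fold; further list members were named to describe their group after their values were seen. The members of the comparison and the 52 lists were chosen with earlier results of these data known. Alternatives were 25 settings of filters, scaling, gates, region margin, depth and cells left out. On simulated counts of this comparison, 9328 genes, the intervals held the true ratio for 95.8% of genes. Of 200 genes changed by a fold of 2 or 0.5, 100.0% of the raised and 98.9% of the lowered were past 1.5-fold. The simulated counts were Poisson draws of each set's totals without spread between cells. Coverage near 95% thus followed from the model and does not show how the intervals hold for real cells. Gene positions and promoters came from RefSeq on GRCm38.p6, the assembly of mm10, matched by symbol, and 587 of 601 list and named genes had a position.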

Additional observations from a re-analysis of the deposited data

How the results depend on the processing

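Across 25 alternatives the median log2 ratio of MHC class II genes stayed above 0 (0.86 as reported) and that of type I interferon genes below 0 (−0.73 as reported). Of 1771 values of the 89 named genes past 1.5-fold, 1576 stayed past it in the same direction and 15 had the other sign, over 11 genes. No paired analysis was possible because both regions come from 1 library and the results come from no test. Median depth was 26588 UMIs in ZC2 and 32771 in ZC3 cells, and genes under 100 UMIs were not compared, which limits statements on rare transcripts.

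Genes past 1.5-fold, 337 towards ZC2 and 240 towards ZC3, were 524 and 384 with a minimum of 30 UMIs, and 105 and 98 with 500 UMIs, where fewer genes were compared. A region margin of 1 gave 190 and 119, and the set without cell cycle UMIs 116 and 145. Towards ZC2 the count was 146 with cells thinned to 5000 UMIs and 223 without cells with Folr2, Lyve1, Retnla, Ear2, Lyz1, Mmp12 or F13a1 UMIs. Towards ZC3 it was 542 at margin 3, with 17 ZC2 cells, and 512 with regions from raw ZC UMIs, with 8. The setting with raw ZC UMIs also used another margin and another minimum of ZC UMIs. The cause of these changes was not tested.

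MHC class II medians were 0.34 without cell cycle UMIs and 0.78 with those sought after thinning, 0.60 at margin 1, 1.03 at margin 3, 0.61 with raw ZC UMIs, 0.75 as the mean of each cell's CPM, 0.74 in cells of 10000 to 40000 UMIs and 0.76 in thinned cells. They were 0.94 without Ly6c2 UMIs, 0.66 without melanoma UMIs, 0.81 without dendritic cell UMIs, 0.97 without resident-type UMIs and 0.91 with free RNA subtracted at 5%. Type I interferon medians were −1.34 at margin 3, −0.34 at margin 1, −1.48 with raw ZC UMIs, −0.13 without Ly6c2 or Ccr2 UMIs and −0.31 with those sought after thinning.

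The sign changed without cell cycle UMIs for Ccl3 (0.10), Bhlhe40 (−0.10), C3 (−0.34), Mgl2 (−0.080) and F13a1 (−0.25), and at margin 3 for Bhlhe40 (−0.11), C3 (−1.55) and Cxcl2 (−0.76). With raw ZC UMIs it changed for Bhlhe41 (0.88), Adam8 (0.46) and C3 (−1.03), without resident-type UMIs for Bhlhe40 (−0.32), Ccl9 (−0.024) and Gpnmb (−0.55), and at a C1q gate of 2500 CPM for Hspb1 (−0.48). The MHC class II-high difference was −0.65 percentage points at margin 3. The cause was not tested. The exclusions of resident-type, dendritic, Ly6c2 or Ccr2 and thinned cell cycle UMIs were chosen after seeing the data.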

Other observations

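Of 13 compared oxidative stress genes 1 was past 1.5-fold in each direction. The metallothionein Mt2, which binds metals, was at 16.9 against 31.4 CPM in ZC2 and ZC3, with 85.6 CPM in free RNA, and Mt1 was within 1.5-fold at 246 and 352 CPM. The cystine transporter Slc7a11 was 2.19 times as high in ZC2, at 11.6 against 5.32 CPM. Klf2, a transcription factor of quiescence, had 118 CPM in ZC2, 228 CPM in ZC3 and 262 CPM in ZC1, and the laminin receptor chain Itga6 had 61.2, 107 and 64.6 CPM in the same order.

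Among monocyte genes Cd300e, a marker of nonclassical monocytes, was 1.73 times as high in ZC3, whereas Ear2 and Treml4 of the same list were 3.28 and 1.93 times as high in ZC2. The list summed to 191 CPM in ZC2 and 244 CPM in ZC3. The secreted glycoproteins Thbs1 and Fn1 were 2.88 and 2.0 times as high in ZC2, while the lectin Lgals1 was at 1293 and 1668 CPM. Il1b was at 94.6 against 49.4 CPM and Osm at 21.0 against 11.8 CPM in ZC2 and ZC3, with Tnf at 82.7 and 108 CPM.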
